A study of Mus musculus with 2 samples.

Results

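Matricellular proteins are secreted into the extracellular matrix but do little to hold it together. Their main known role is to bind integrins, growth factors and matrix fibres and so to tune how cells attach, migrate and respond, and in adult skin most of them are scarce until tissue is injured. The 10 genes described here are Spp1, Thbs1, Thbs2, Postn, Tnc, Fn1, Sparc, Ctgf, Cyr61 and Itgbl1, which were chosen by symbol as matricellular and provisional matrix genes of the early wound. All 10 were found among the 24346 gene symbols listed in each library. They were measured by bulk mRNA sequencing of skin wounds harvested 24 h after injury from C57BL/6J mice, as 1 library of WT wounds and 1 library of wounds of PU.1 knockout (PU.1_KO, here PU.1-/-) mice. PU.1, encoded by Spi1, is a transcription factor needed for the development of macrophages and other leukocytes, and the knockout is described as lacking neutrophils, macrophages, mast cells and T cells. The knockout is constitutive and so is not limited to the wound. According to the methods, full-thickness incisions were made in the dorsal skin of 1-day-old pups, whereas the design text speaks of excisional wounds. The number of pups behind each library is not stated. Because each genotype has 1 library, no test between animals was possible, and every comparison given here is one between these 2 libraries. Neither is of unwounded skin, so a change of these genes upon wounding was not measured.

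Several of these genes are classical parts of the wound response. Osteopontin (Spp1) is an acidic, integrin-binding cytokine made by macrophages, fibroblasts and bone cells. Thrombospondin 1 binds CD47 and CD36 and can release TGFβ1 from its latent complex, thrombospondin 2 is a close relative, and fibronectin (Fn1) forms, together with fibrin, the provisional matrix on which cells enter a wound. Tenascin C (Tnc) and periostin (Postn) are laid down by activated fibroblasts, SPARC binds collagen and regulates fibril assembly, and the CCN proteins connective tissue growth factor (Ctgf) and Cyr61 are early targets of serum, TGFβ1 and mechanical signals. Itgbl1 resembles the cysteine-rich EGF-like repeats of integrin beta chains but lacks the parts that would make it an integrin subunit.

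The sequences around the start sites were read first, and were searched for a few short motifs. RefSeq windows on GRCm38.p6, the assembly of mm10, that span 250 bases before and 50 bases after a start site were matched for 7 of the 10 genes. No window was matched for Thbs1, Fn1 or Ctgf. The first windows of Spp1 and Itgbl1 are printed because these genes were among those with a lower level in the PU.1-/- wound, and that of Cyr61 because its level was higher there than in WT by more than that of any other of the 10. Capitals mark matches, on either strand, to 7 motifs that were searched. The first was GAGGAAGT, the ETS site that PU.1 is known to prefer. The second, AACCACA, is a site of RUNX factors, which are known partners of ETS proteins. The third, TGANTCA, is the site of the stress-responsive factor AP-1. The fourth, GGAATG, is bound by TEAD factors, the partners of YAP and TAZ. The fifth, TGACGT, is the core of the cyclic AMP response element (CRE). The last pair were TATAAA, the TATA box, and the CArG box of serum response factor, searched under its usual degenerate form. The windows lie at chr5:104434861-104435160 on the plus strand for Spp1, at chr14:123659890-123660189 on the plus strand for Itgbl1 and at chr3:145649936-145650235 on the minus strand for Cyr61, and each is written in the direction of transcription.
Spp1: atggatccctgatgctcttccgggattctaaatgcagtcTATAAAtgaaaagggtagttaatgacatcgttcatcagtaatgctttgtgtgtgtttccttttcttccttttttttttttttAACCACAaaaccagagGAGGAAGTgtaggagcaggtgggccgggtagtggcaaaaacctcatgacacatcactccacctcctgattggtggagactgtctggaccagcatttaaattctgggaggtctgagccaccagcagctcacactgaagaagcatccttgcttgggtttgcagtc
Itgbl1: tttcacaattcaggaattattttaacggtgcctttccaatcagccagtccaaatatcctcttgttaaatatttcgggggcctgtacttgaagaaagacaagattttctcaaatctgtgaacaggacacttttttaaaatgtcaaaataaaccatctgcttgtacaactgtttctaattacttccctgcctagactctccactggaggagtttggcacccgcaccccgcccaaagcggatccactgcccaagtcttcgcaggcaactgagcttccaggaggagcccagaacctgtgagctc
Cyr61: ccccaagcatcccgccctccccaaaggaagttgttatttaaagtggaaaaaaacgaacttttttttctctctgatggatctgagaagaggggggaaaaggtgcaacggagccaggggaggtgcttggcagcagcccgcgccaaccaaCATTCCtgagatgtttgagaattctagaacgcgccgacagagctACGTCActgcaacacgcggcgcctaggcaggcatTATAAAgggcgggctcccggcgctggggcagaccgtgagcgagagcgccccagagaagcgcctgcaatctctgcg

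In the Spp1 window the RUNX letters lay from −129 to −123 and the PU.1-type ETS letters from −113 to −106, counted from the start site, and a TATAAA lay far upstream at −211 to −206. The ETS letters occur in 3.20% and the RUNX letters in 5.27% of all 32851 promoter windows, and neither was found in any other window of the genes matched here. The Cyr61 window held a TATAAA at −25 to −20, a CRE core at −59 to −54 and a TEAD site at −103 to −98, the last 2 as reverse complements. These letters occur in 13.6%, 7.51% and 14.7% of all windows. The Itgbl1 window held none of the 7 motifs. It begins at 123659890, whereas the gene as listed begins at 123659937, so most of this window lies inside the gene. Little sequence upstream of that gene start was searched, unlike for Spp1 and Cyr61. Among the remaining windows, TATAAA was the single motif found, in 1 window each of Thbs2 and Postn and in both overlapping windows of Tnc, and the Sparc window held none. A match is a description of letters and does not show that a factor binds there, and these libraries hold no measurement of binding.

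Spi1 itself was at 35.4 FPKM in WT against 1.45 in PU.1-/-. FPKM scales the fragments of a gene by its exon length and by library depth, so levels of different genes can be compared. Depth, estimated from the whole-read steps of low values, was about 1.28e+07 fragments in WT and 1.47e+07 in PU.1-/-. The 95% intervals of ratios are exact binomial intervals on read numbers estimated in this way, and they cover counting error only, not the spread between animals. The libraries also differed in sex-linked genes, with Xist listed at 0 in WT and 9.48 FPKM in PU.1-/-, and with all 4 Y-linked genes examined listed at 0 in PU.1-/-, so that genotype and sex cannot be told apart. All 10 skeletal muscle markers were higher in the PU.1-/- library, with a median log2 ratio of 0.66. In bulk tissue, fewer cells of a type and less RNA per cell cannot be told apart.

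Among the 10 genes, 3 were at least 2-fold lower in the PU.1-/- wound, namely Spp1, Thbs1 and Itgbl1, and none was at least 2-fold higher. The background was 6.49% of the 16298 genes that reached 0.1 FPKM in either library called lower and 3.47% called higher by the same rule. Among the genes of at least 10 FPKM, to which all of the 10 except Itgbl1 belong, 2.88% were called lower. In the deposited values the other 7 genes lay within 1.5-fold of WT. Of these, Fn1, Tnc and Sparc were below WT and Ctgf, Thbs2, Postn and Cyr61 above it. When the libraries were scaled to equal fibroblast markers, Ctgf and Thbs2 were below WT and Fn1 was 1.67-fold lower. Over the 10 genes, the log2 ratios of PU.1-/- to WT had a median of −0.13, against −0.01 over all genes tested. The group was thus split, with a few large differences in one direction and most members close to the WT level.

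**Figure D1:**
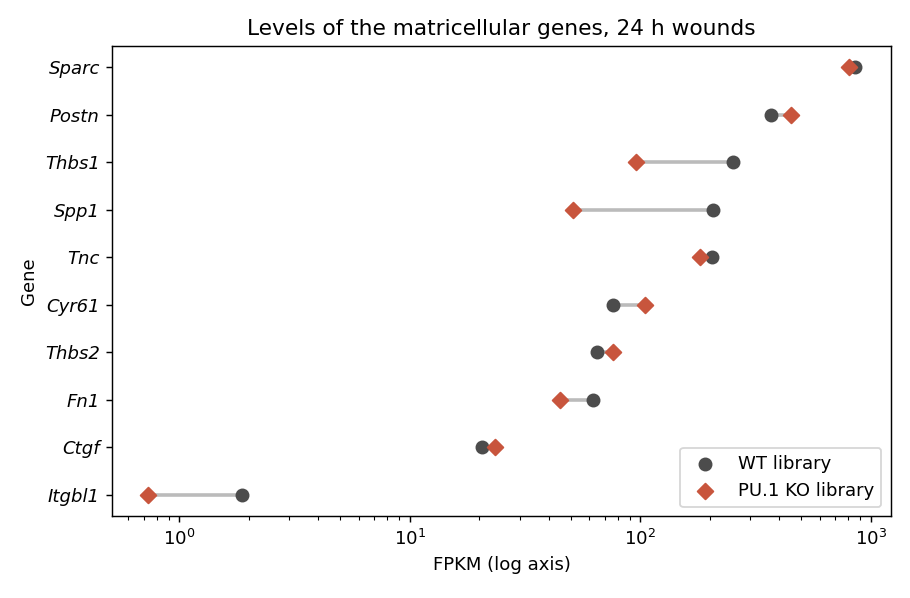
FPKM (log axis) of the 10 genes in the WT library (circles) and the PU.1-/- library (diamonds), 1 library each, with a line joining the 2 values of a gene. Sparc is the highest gene in both libraries at 856 and 804 FPKM, and the widest gaps are those of Spp1, Thbs1 and Itgbl1.

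The 10 genes spanned a wide range of abundance. In the WT wound the order of levels was Sparc, Postn, Thbs1, Spp1, Tnc, Cyr61, Thbs2, Fn1, Ctgf and Itgbl1, from 856 FPKM down to 1.88 FPKM. Without replicates the order of close neighbours, such as Spp1 at 206 FPKM and Tnc at 204 FPKM, is not established. In the PU.1-/- wound Sparc and Postn again led, but Tnc, Cyr61 and Thbs2 stood above Spp1. Of these, Cyr61 and Thbs2 were well below Spp1 in WT, while Tnc was close to it. Together the 10 genes made up 0.298% of the summed FPKM in WT and 0.267% in PU.1-/-. Within that sum, Spp1 went from 9.74% in WT to 2.79% and Thbs1 from 11.9% to 5.24%, while Postn went from 17.5% to 24.6%. These shares do not depend on how the 2 libraries were scaled to each other.

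Spp1 (mm10 chromosome 5, from 104435111 to 104441053) differed most of the 10. Its level was 206 FPKM in WT against 51.2 in PU.1-/-, a 4.03-fold difference with a counting interval of 3.75 to 4.33. It remained well expressed without PU.1, above 89.7% of all genes with a value above 0, against 97.5% in WT. Set against Sparc in the same library, there were 0.241 FPKM of Spp1 per FPKM of Sparc in WT and 0.0636 in PU.1-/-. The other genes of its family of acidic phosphoproteins, Ibsp, Dmp1, Dspp and Mepe, are known from bone and teeth, and each lay below 0.3 FPKM in both libraries. Dmp1 was called higher at 0.0282 FPKM in WT against 0.221 in PU.1-/-, which stand for about 0.929 and 8.36 estimated reads. Of 10 bone and cartilage markers, the osteoblast genes Sp7 and Bglap were near the limit of detection. Sp7 was at 0.0347 and 0.0605 FPKM. Bglap was at 0.306 FPKM in WT, about 0.941 estimated reads, and listed at 0 in PU.1-/-. Acan, a cartilage gene, was detected at 0.352 and 0.631 FPKM, about 32.4 and 66.6 estimated reads. Markers that other tissues also express had higher levels than Sp7 and Bglap in both libraries. Alpl was at 14.0 and 15.8 FPKM, Sox9 at 8.25 and 12.3 FPKM and Runx2 at 2.26 and 1.82 FPKM.

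Thrombospondin 1 (Thbs1) and thrombospondin 2 (Thbs2), are close relatives with the same domain layout, and of this pair Thbs1 alone was called. Thbs1, on chromosome 2 from 118111876 to 118127133, was at 252 FPKM in WT against 96.0 in PU.1-/-, 2.63-fold lower with an interval of 2.56 to 2.70. Thbs2, on chromosome 17 from 14665500 to 14694262, was at 65.0 FPKM in WT against 75.8 in PU.1-/-, a ratio of PU.1-/- over WT of 1.17 with an interval of 1.12 to 1.21. Thbs1 thus stood far above Thbs2 in the WT wound and came close to it in the PU.1-/- wound. The pentameric members Thbs3 and Thbs4 were near their WT levels, with log2 ratios of 0.14 and 0.05, and Comp, a cartilage thrombospondin, was at 0.0650 FPKM in WT and listed at 0 in PU.1-/-. Thbs1 was therefore the single thrombospondin of the 4 that could be tested to pass 2-fold. The log2 ratio of Thbs2 was 0.22 in the deposited values and −0.04 with fibroblast marker scaling, so its direction is not settled.

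Itgbl1, on chromosome 14 from 123659937 to 123978865, was the scarcest of the 10 and the third called lower. It was at 1.88 FPKM in WT against 0.730 in PU.1-/-, and in WT it lay above 30.2% of the genes with a value above 0. The difference of 2.57-fold rested on about 93 WT and 42 PU.1-/- reads, and its interval of 1.75 to 3.75 extended below 2-fold. The lowest whole read numbers with this ratio are 56 and 25. They need not be the true numbers, since for Postn the lowest are 5 and 7 against about 14248 and 19947 estimated reads. With 56 and 25 reads the interval would be 1.58 to 4.30. The call was lost when 1 was added to every FPKM, where the difference was 1.66-fold (log2 ratio −0.73), and when values below 1 FPKM were raised to 1 (log2 ratio −0.91). The true integrin beta chains, whose EGF-like repeats Itgbl1 resembles, split by the cells known to carry them. The leukocyte chains were the ones called lower. Itgb2, the partner of the leukocyte alpha chains, was at 20.4 FPKM in WT against 0.165 in PU.1-/-, and Itgb7 at 2.02 and 0.433 FPKM. Itgb2l, a granulocyte gene, was at 4.70 FPKM in WT and listed at 0 in PU.1-/-. The widely expressed Itgb1 was at 178 FPKM in both libraries, and Itgb3, Itgb4, Itgb5, Itgb6 and Itgb8 had log2 ratios between −0.06 and 0.39. In the list of 10 genes formed by these chains and Itgbl1 itself, 4 were lower, Itgbl1 among them, and none was higher. The list median was −0.03.

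**Figure D2:**
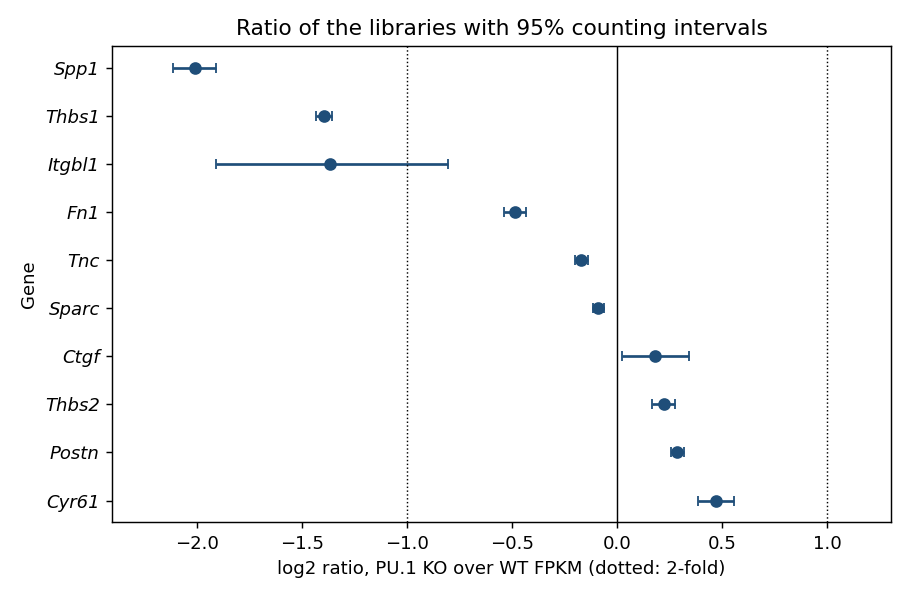
Log2 ratio of PU.1-/- over WT FPKM for each of the 10 genes (points) with 95% exact binomial counting intervals (bars), which do not cover the spread between animals. Spp1 and Thbs1 lie wholly beyond the dotted 2-fold line at −1, the interval of Itgbl1 crosses it, and the other 7 genes lie between −0.49 and 0.47.

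Fibronectin differed most among the members below WT that were not called. Fn1, on chromosome 1 from 71585473 to 71653280, was at 62.6 FPKM in WT against 44.7 in PU.1-/-, a 1.40-fold lower level with an interval of 1.35 to 1.45. These values are for the whole gene and do not separate its splice forms. With fibroblast marker scaling Fn1 was 1.67-fold lower. Of the 8 provisional matrix genes listed with it, 1 passed 2-fold, the fibrinogen gamma chain Fgg, at 2.03 and 0.765 FPKM. The fibrinogen alpha and beta chains, which are made with the gamma chain mainly in liver, were at 11.9 and 14.5 FPKM (Fga) and at 1.64 and 2.58 FPKM (Fgb), so that the 3 chains differed in direction. The large proteoglycan versican (Vcan) was at 37.4 FPKM in WT against 35.4 in PU.1-/-. The hyaluronan synthases Has1 and Has2 had log2 ratios of −0.09 and 0.31, and the list median was 0.10.

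The fibroblast matrix genes of the group were close to WT. Sparc, on chromosome 11 from 55394159 to 55420080, was at 856 FPKM in WT against 804 in PU.1-/-. Postn, on chromosome 3 from 54359267 to 54391041, was at 370 and 450.4 FPKM, a ratio of 1.22 with an interval of 1.19 to 1.25. Tnc, on chromosome 4 from 63959785 to 64047015, was at 204 and 181 FPKM, 1.13-fold lower with an interval of 1.10 to 1.15. These differences exceed counting error, and whether they exceed the spread between pups cannot be measured here. Of their relatives, the SPARC family had a median log2 ratio of 0.28 with none of 8 genes past 2-fold, and its most abundant other member, the secreted glycoprotein Fstl1, was at 363 and 340.4 FPKM. Sparcl1, known from vessel-associated matrix, was at 60.4 and 88.4 FPKM, and Smoc2 at 64.9 and 87.0 FPKM. The 3 tenascins that could be tested were all below WT, with log2 ratios from −0.40 (Tnxb) to −0.17 (Tnc). The fasciclin-domain protein Tgfbi, a TGFβ1-induced relative of periostin, was at 91.5 and 80.4 FPKM. Stab1, a fasciclin-domain scavenger receptor of macrophages, was the member of that list called lower, at 9.49 and 3.40 FPKM. None of the 7 fibulin genes passed 2-fold.

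The CCN genes divided in a way that the 2 members did not show by themselves. Cyr61 (Ccn1 in RefSeq), on chromosome 3 from 145646971 to 145649985, was at 76.0 FPKM in WT against 105 in PU.1-/-, a ratio of 1.38 with an interval of 1.304 to 1.47. Ctgf (Ccn2), on chromosome 10 from 24595442 to 24598683, was at 20.6 and 23.4 FPKM, a ratio of 1.13 with an interval of 1.02 to 1.27. The log2 ratio of Cyr61 stayed between 0.21 and 0.52 under all alternatives tried, whereas that of Ctgf became −0.07 with fibroblast marker scaling. Nov (Ccn3), a CCN protein known to oppose some actions of Ctgf, was at 53.8 FPKM in WT against 17.99 in PU.1-/-, 2.99-fold lower with an interval of 2.74 to 3.26. Wisp1 (Ccn4) was at 6.46 and 6.43 FPKM and Wisp2 (Ccn5) at 1.66 and 1.48 FPKM. Nov was thus the member of this family with the largest difference, and it was also more abundant than Ctgf in WT and less abundant in PU.1-/-.

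Ctgf and Cyr61 are standard targets of YAP and TAZ, the transcriptional coactivators that respond to cell stretch and matrix stiffness. None of 22 target genes passed 2-fold in either direction. Their median log2 ratio was 0.09, with 16 genes above WT and 6 below. With fibroblast marker scaling, which lowers every log2 ratio by 0.26, that median is below 0. Ankrd1, a stretch-responsive gene also expressed in muscle, was at 18.4 and 29.2 FPKM, Igfbp3 at 285 and 360 FPKM, and the ectonucleotidase Nt5e at 17.3 and 27.1 FPKM. These 3 were above WT, while Axl (46.8 and 48.2 FPKM) and F3 (57.3 and 56.2 FPKM), other abundant targets, were close to it.

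**Figure D3:**
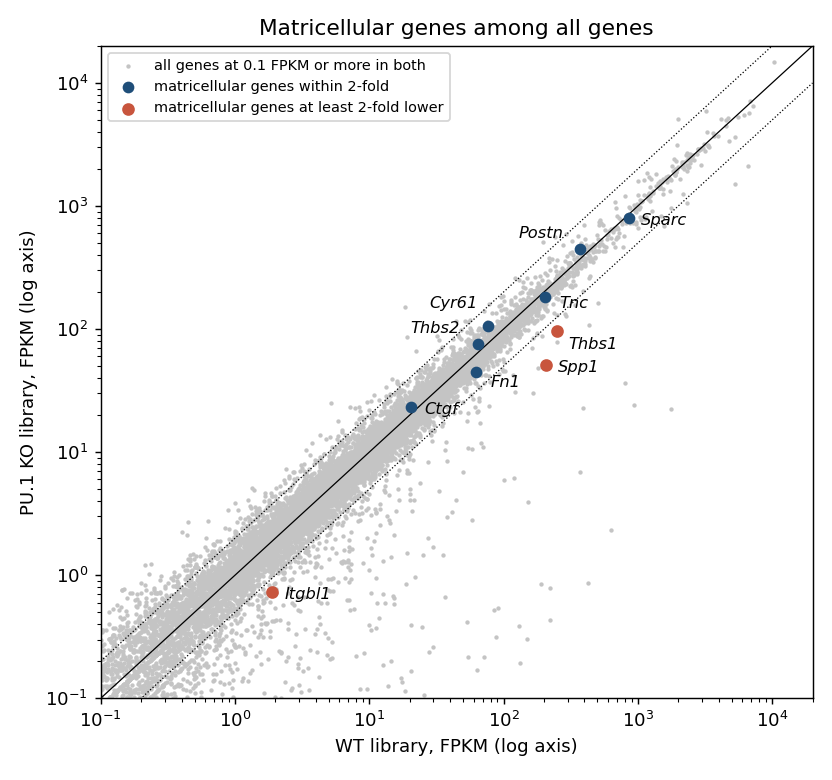
FPKM in the PU.1-/- library against FPKM in the WT library, both on log axes, for all genes with at least 0.1 FPKM in both (grey) and for the 10 matricellular genes (coloured), with the line of equality and dotted lines at 2-fold. Spp1, Thbs1 and Itgbl1 lie below the lower dotted line, and the other 7 genes lie within the band that holds most genes.

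The receptors for these proteins differed little. Of 15 receptor genes, none was at least 2-fold lower and 1, Itga4, was higher, at 1.13 FPKM in WT against 2.39 in PU.1-/-. The median log2 ratio was 0.04. For osteopontin, the receptor genes Itgav, Itgb3 and Itgb5 had log2 ratios of 0.12, 0.10 and 0.20, and Cd44 was at 98.3 and 79.6 FPKM. For thrombospondin 1, Cd36 was at 135 and 138 FPKM, and Cd47 was 1.53-fold lower, at 60.4 and 39.4 FPKM, the largest difference towards lower levels in the list. Itga5, the alpha chain of the fibronectin receptor, was at 66.9 and 60.8 FPKM, and the heparan sulfate co-receptor Sdc4 at 113 and 117 FPKM. In a separate list of leukocyte and platelet integrin genes, which does not hold Itga4, 4 of the 7 that could be tested were called lower. Of these, Itgam, an alpha chain of macrophages and neutrophils, was at 24.8 and 0.378 FPKM. The platelet integrin chain Itga2b, in the same list, was at 3.19 and 3.83 FPKM.

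Most leukocyte markers were also lower in the PU.1-/- library. All 10 macrophage markers were called lower, their summed level was 635 FPKM in WT against 12.4 in PU.1-/-, and Adgre1, C1qa, C1qb and C1qc were listed at 0 in PU.1-/-. Of 9 neutrophil markers measured, 8 were lower, and Ngp, Retnlg, Ltf and Csf3r were listed at 0 in PU.1-/-. Their summed level was 12555 FPKM in WT against 3669 in PU.1-/-, most of it from S100a8 (6600 and 2129 FPKM) and S100a9 (5311 and 1516 FPKM), which keratinocytes also make. The part of these cells in the levels of Spp1 and Thbs1, which macrophages are known to make, was not tested. It was not tested for Itgbl1 and Nov either. The paper reports Itgbl1 expression in fibroblasts and not in macrophages, in older wounds of adult mice. Thbs1 is also abundant in platelets, whose markers disagreed with each other. Pf4 was at 635 and 2.35 FPKM and Ppbp at 72.0 and 0.217 FPKM, while Gp1bb was at 5.25 and 4.995 FPKM. Gp1ba was at 0.629 and 0.324 FPKM. Gp9, at 0.362 and 0.420 FPKM, rested on only about 3.16 and 4.21 estimated reads. Of the 10 platelet markers, 6 could be tested and 2 were lower, and the part of platelets was not tested.

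Stromal markers lay near or above their WT levels. Of 10 fibroblast markers, none passed 2-fold, 9 were above WT and 1, Mfap5, was below it, at 64.5 and 34.3 FPKM, and the median log2 ratio was 0.26. Col1a1 was at 350.5 and 385 FPKM and Dcn at 690 and 959 FPKM. The median of 9 myofibroblast and smooth muscle markers was 0.02, with 5 above WT and 4, Acta2 among them at 68.1 and 61.9 FPKM, below it. Their log2 ratios ran from −0.50 (Cnn1) to 0.82 (Des). Pericyte, endothelial and keratinocyte markers had medians of 0.07, 0.22 and 0.23. Of these, 1 endothelial marker, Vwf, was called higher, at 2.82 FPKM in WT against 5.90 in PU.1-/-. When the libraries were scaled to equal fibroblast markers, Spp1 was 4.81-fold, Thbs1 3.14-fold and Itgbl1 3.07-fold lower in PU.1-/-, a setting that by its construction lowers every ratio by the same amount.

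**Figure D4:**
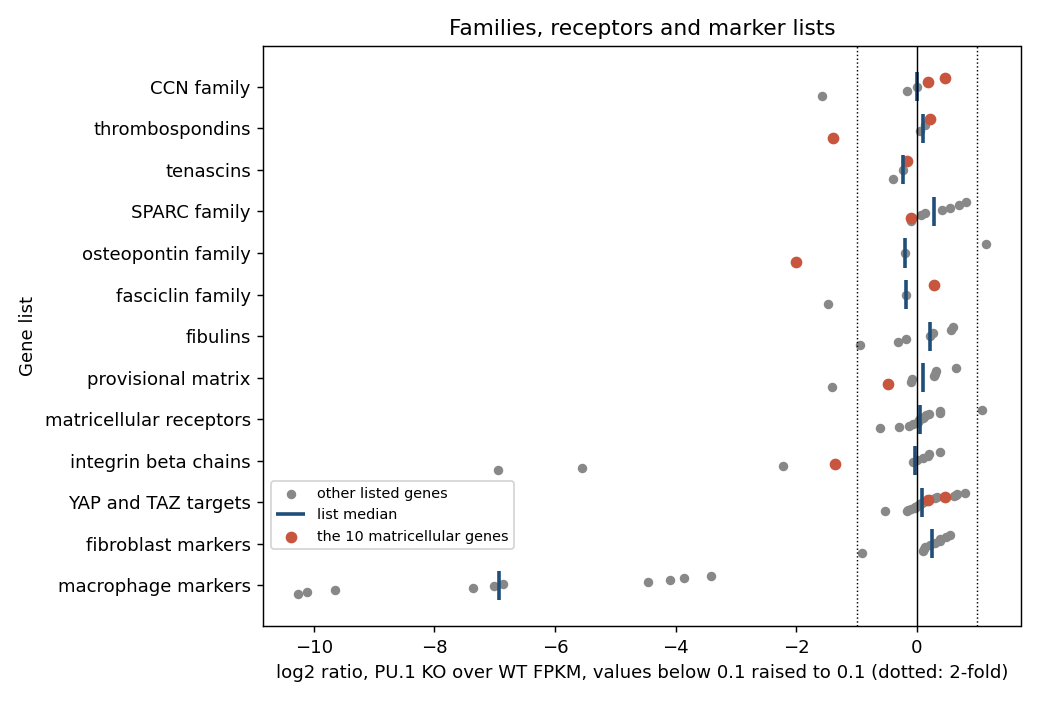
Log2 ratio of PU.1-/- over WT FPKM, with values below 0.1 raised to 0.1, for each tested gene of 13 lists (points, the 10 matricellular genes coloured), with the median of each list (vertical bars) and dotted lines at 2-fold. The medians of the matrix families and receptors lie between −0.23 and 0.28, and all 10 macrophage markers lie below −3.

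The genes nearest to Spp1 and Thbs1 in both libraries were found by the distance over the 2 log2 FPKM values, among 12443 genes with at least 1 FPKM in both. For Spp1 these were the chemokines Cxcl2 (180 and 48.4 FPKM) and Ccl7 (164 and 70.3 FPKM) and the heme oxygenase gene Hmox1 (251 and 78.4 FPKM). For Thbs1 they were Hmox1, Car3 (195 and 88.1 FPKM) and Wfdc21 (251 and 131 FPKM). Itgbl1 itself was below that minimum in PU.1-/-, so genes at its level were left out of the search and none is named for it. With 2 libraries such a likeness rests on 2 values per gene.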

How the data were processed

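The authors prepared stranded mRNA libraries from homogenized wounds, sequenced them as single-end reads, mapped the reads to mm10 and deposited FPKM values made, per their methods, with Cuffnorm. The submitters' processing notes name TopHat2 2.1.1, Bowtie2 2.2.8, SAMtools 0.1.18 and Cuffdiff 2.2.1. The gene annotation is not given in the sources used here.

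FPKM values below 0.1 were raised to 0.1, log2 ratios of PU.1-/- over WT were taken, and a gene was called at 2-fold. No p-value was computed, since each genotype has 1 library. Among 4542 low genes (above 0 in both libraries, below 2 FPKM in WT), 460 had the same ratio of WT to PU.1-/- FPKM, 1.1486, which was taken as that of equal read numbers. For 60.7% the ratio was that of whole read numbers up to 30 (relative tolerance 2e-05). Depth was the median over 1753 of these genes of the value that makes FPKM, times transcript length less 200 nt, equal the smallest such read number. The longest RefSeq-linked GENCODE transcript was used, which gives intervals that are too narrow for genes where the authors' transcript was shorter. Gene positions and promoters are from RefSeq on GRCm38.p6. Calls and intervals were tried on simulated read counts with large known changes planted in genes of many reads. The intervals there were given the simulated counts, so the estimation of read numbers from FPKM and transcript length was not tested.

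Named genes were the 10 members, most of the genes past 2-fold in the family, receptor and integrin lists, and some of the most abundant ones. Spi1, sex-linked genes, some markers and the 3 nearest genes to Spp1 and to Thbs1 were also named. Those nearest to Itgbl1, also in the rule, are not given because the minimum of 1 FPKM excludes its level. Other genes were named after their values were seen. The members and lists were chosen with earlier results of these data known. Alternatives changed the treatment of low values, scaling, fold threshold, call rule and filter. Analyses used Python 3.11.15 with scipy 1.17.1, numpy 2.4.6 and pandas 2.3.3, and figures matplotlib 3.10.9.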

Additional observations from a re-analysis of the deposited data

How the results depend on the processing

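The number of matricellular genes called lower was 3 and stayed between 2 and 3 under 10 of the 11 alternatives, and it was 1, Spp1, at a 3-fold threshold. Itgbl1 was the gene not called when 1 was added to every FPKM (1.66-fold), when values below 1 FPKM were raised to 1, when its whole counting interval had to pass 2-fold, and at a filter of 10 FPKM, which removes it. None of the 10 genes was called higher under any of the 11 alternatives. The median log2 ratio of the 10 genes was −0.13, and it was −0.0844 with equal FPKM sums, −0.0904 at a filter of 10 FPKM, where 9 genes remain, and −0.39 with fibroblast markers set equal, which shifts every ratio by −0.26. The last setting put Ctgf and Thbs2 below 0, and the signs of the other 8 genes were the same under every alternative that gave them a value. Over all genes, 1057 were called lower, against 1867 at 1.5-fold, 681 at 3-fold, and 589 and 209 at filters of 1 and 10 FPKM. No paired analysis was possible because each genotype has 1 library, and no library could be left out for the same reason. Depth limits Itgbl1 most, and genes below 0.1 FPKM in both libraries could not be tested.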
